A study of Mus musculus with 6 samples.

Results

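B lymphocytes carry a set of genes for the chains and kinases of the B cell receptor, the surface proteins that tune it and the transcription factors that hold B cell identity. A list of 37 such gene names, set down as B cell restricted, was followed in naive CD8 T cells sorted from mouse lymph node. Of the 37, 35 matched the symbol of a row in a table of 55450 genes. Faim3, an older name of Fcmr, and Cxcr5-as matched no row. Some of the genes, such as Syk, Lyn, Mef2c, Cd55 and Cd83, are also known from other cell types.

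The study compared 3 WT (C57BL/6) libraries with 3 CD103KO (Itgae-/-) libraries by bulk RNA-seq. Both groups were sorted as Ly6C-CXCR3- cells, and age and sex are not stated in the labels used here. CD103 is the integrin chain encoded by Itgae, so the comparison asks how these cells differ without it. Separate animals are not named in the labels, and the p-values measure only the spread of these libraries, part of which may be technical. Levels are given as CPM, the usual normalisation of a count to the size of its library, and log2 fold changes are for CD103KO against WT.

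The B cell receptor pairs a membrane immunoglobulin with the signalling chains Cd79a and Cd79b. When antigen binds, Src family kinases such as Lyn and Blk, and then Syk and Btk, act through the adaptor Blnk, while Cd22, Siglecg and Cd72 damp the signal and Cr2 strengthens it. Ebf1 and Pax5 switch on and hold the B cell programme, and lymph nodes hold many B cells next to their T cells.

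The libraries held 68292475 to 94347034 counts in total, which made 1 count worth 0.0104 to 0.0147 CPM. Itgae was at 460 to 495 CPM in WT and 61.1 to 67.9 CPM in CD103KO, in the direction of the labels. Cd8a was at 1438 to 1506 CPM over the 6 libraries and Cd4 at 0.0734 to 0.775 CPM. WT replicates 1 and 2 had 5012 and 7628 counts of Xist, which is made from the inactive X chromosome, and 0 of Ddx3y, a gene of the Y chromosome. The other 4 libraries, WT replicate 3 and the 3 of CD103KO, had at most 2 counts of Xist and 3612 to 4466 of Ddx3y. The WT libraries thus differ among themselves in these sex-linked transcripts, and sex and genotype are partly confounded. The B cell genes are therefore also given with a term for Xist reads.

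The lambda light chain genes are shown first because reads may fit more than 1 of them. In GENCODE M21 (GRCm38), the coding parts of Iglc2 and Iglc3 were 96.5% identical (303 of 314 aligned bases), and those of Iglc1 and Iglc2 were 74.8% identical. The final 90 coding bases lie on the minus strand at chr16:19061755-19061844 (Iglc1), chr16:19198539-19198628 (Iglc2) and chr16:19065368-19065457 (Iglc3). They are printed 5′ to 3′, with capitals at the 29 bases that were not the same in all 3 genes.
Iglc1: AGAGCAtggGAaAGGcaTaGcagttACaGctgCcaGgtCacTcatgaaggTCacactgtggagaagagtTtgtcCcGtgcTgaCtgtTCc
Iglc2: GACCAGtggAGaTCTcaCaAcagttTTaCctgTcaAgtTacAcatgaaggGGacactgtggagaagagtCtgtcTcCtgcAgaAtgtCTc
Iglc3: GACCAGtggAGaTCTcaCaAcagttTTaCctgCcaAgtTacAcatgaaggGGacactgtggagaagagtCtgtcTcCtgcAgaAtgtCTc

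The counts of Iglc2 are uncertain because of this likeness to Iglc3. Summed, the pair averaged 0.263 CPM in WT and 0.771 CPM in CD103KO, so the difference between groups was also seen without dividing reads between them.

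Most of the B cell genes were rare in these cells, and most of the rare ones had a higher mean in CD103KO. Of the 35 genes, 29 averaged under 5 CPM over all libraries, a level chosen after the values were seen, and 28 of these 29 had the higher mean in CD103KO. With edgeR's quasi-likelihood test, adjusted over 13470 genes, Cd79a, Fcer2a and Ms4a1 rose, which is 3 of the 33 B cell genes tested, where 0.141% of all tested genes were called higher. By edgeR 0 of the 33 fell, where 0.0817% of all tested genes did. DESeq2 called 7 of 35 higher, adding Cd22, Fcmr, Mef2c and Pax5, and 0 lower, where it called 0.544% and 0.285% of genes.

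Before adjustment, at p under 0.05, edgeR gave 19 of the 33 higher and 0 lower, beside 4.53% and 4.2% of all tested genes. The CD103KO libraries lay above the WT libraries without overlap for 19 of the 33, beside 6.82% of tested genes, and below them for 0, beside 7.36%. The log2 fold change was above 0 for 27 of the 33, beside 49% of tested genes, with a median of 1.12 beside -0.0025 over all tested genes. In bulk RNA, a different number of cells of a type and a different amount of RNA per cell cannot be told apart.

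Part of these counts follows from which genes could be tested, so they are a description only. The filter kept genes that reached about 0.133 CPM in 3 libraries. Of the 33 tested genes, 12 reached it in fewer than 3 WT libraries, and 11 of those 12 reached it in all CD103KO libraries. The 11 were Iglc1, Cd40, Blnk, Cd180, Cr2, Fcer2a, Fcrla, Ly86, Bcl11a, Ebf1 and Mef2c, and the other was Btk. Among the 21 that reached this level in every WT library, 9 had groups that did not overlap, and these were higher in CD103KO. Vpreb3, a relative of the surrogate light chain, and Siglecg were not tested, with 6 and 9 counts in all of WT and 14 and 28 in all of CD103KO.

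**Figure D1:**
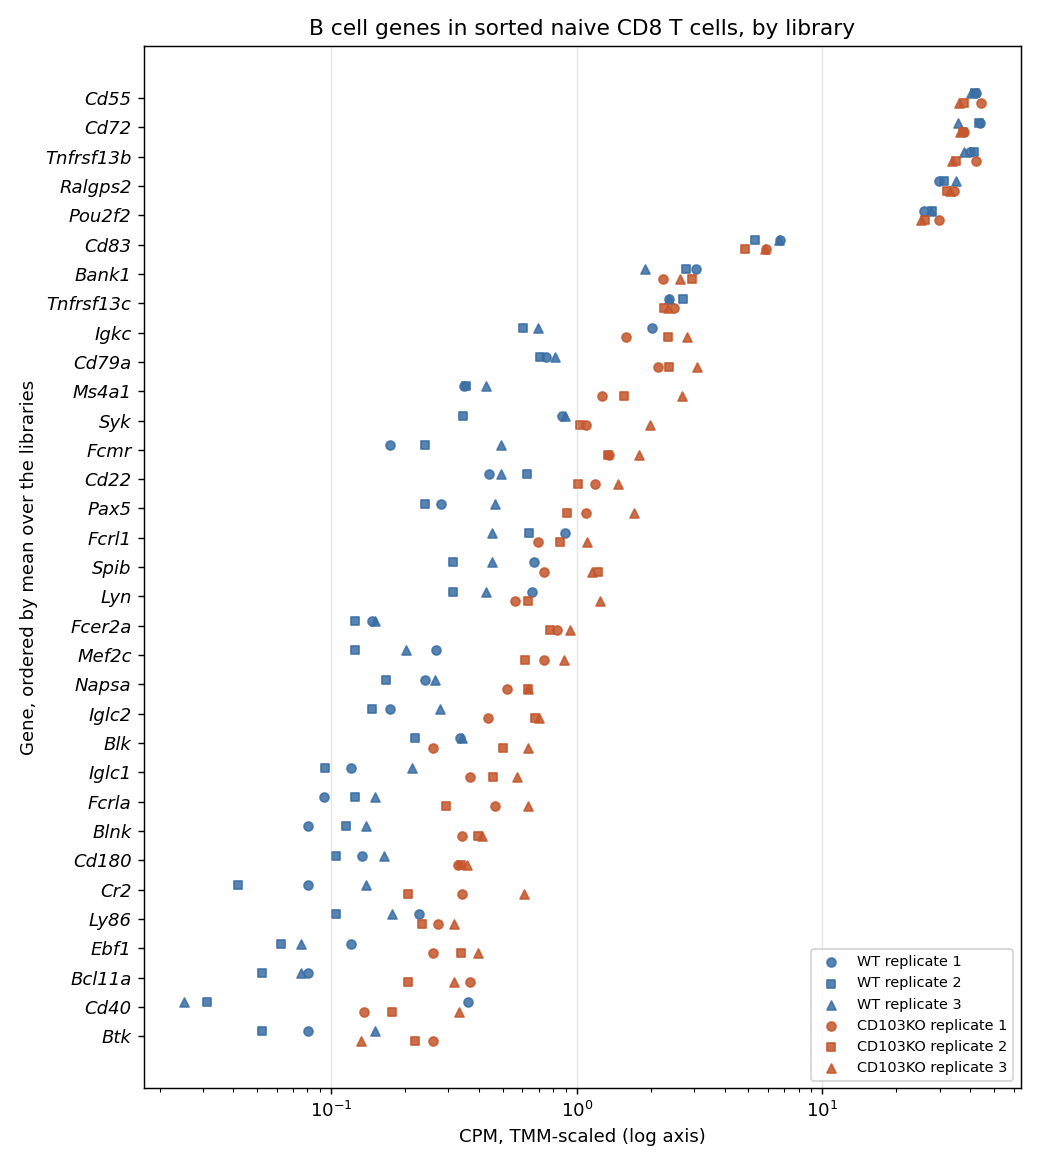
Level of each of the 33 tested B cell genes (rows, ordered by mean) in each library (points; blue WT, orange CD103KO, shape by replicate number), in CPM on a log axis. For Cd79a, Ms4a1, Fcer2a and Fcmr the 3 CD103KO points lie right of the 3 WT points, while for the 6 genes at the top, Cd83 and above, the groups overlap.

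Among the receptor chains, Cd79a (ENSMUSG00000003379.7, GRCm38 chromosome 7, 24897381 to 24902197, plus strand) was at 0.748, 0.710 and 0.818 CPM in WT and at 2.14, 2.36 and 3.08 CPM in CD103KO. These levels came from 56, 68 and 65 counts and from 157, 161 and 233 counts. The groups did not overlap, and CD103KO replicate 3 was the highest library. The log2 fold change of Cd79a was 1.74 (SE 0.19, adjusted p = 0.00592, edgeR).

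Igkc, the constant part of the kappa light chain, was at 2.02, 0.606 and 0.692 CPM in WT and at 1.58, 2.35 and 2.80 CPM in CD103KO. WT replicate 1 overlapped the CD103KO libraries, and the test was not passed (log2 fold change 1.04, SE 0.43, adjusted p = 0.541, edgeR). Without WT replicate 1, the log2 fold change of Igkc was 1.79 (SE 0.28, adjusted p = 0.114, edgeR). The same library was the highest of all 6 for Ighg1, a class-switched heavy chain, at 2.92 CPM where the other 5 libraries were at 0.212 to 0.440 CPM. It was also the highest for Jchain, which joins secreted immunoglobulins, at 0.935 CPM where the others were at 0.218 to 0.569 CPM. The part of plasma cell transcripts in the level of Igkc was not tested.

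Iglc1 was at 0.120, 0.0940 and 0.214 CPM in WT and at 0.368, 0.455 and 0.569 CPM in CD103KO. Iglc2 was at 0.174, 0.146 and 0.277 CPM in WT and at 0.436, 0.675 and 0.701 CPM in CD103KO. Neither pair of groups overlapped, and neither gene passed (log2 fold changes 1.70 and 1.60, adjusted p = 0.222 and 0.199, edgeR). Iglc1 reached the filter level in 1 WT library but in all CD103KO libraries.

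Of the 7 kinases and adaptors, 0 passed in edgeR or DESeq2. At an unadjusted p under 0.05 in edgeR 2 were higher, beside 4.53% of all tested genes. The adaptor Blnk was at 0.0801, 0.115 and 0.138 CPM in WT and at 0.341, 0.396 and 0.410 CPM in CD103KO, without overlap (log2 fold change 1.76, adjusted p = 0.145, edgeR). Blnk reached the filter level in 1 WT library but in all CD103KO libraries. Syk was at 0.868, 0.345 and 0.893 CPM in WT and at 1.09, 1.03 and 1.98 CPM in CD103KO, again without overlap but with a wider spread (0.98, adjusted p = 0.523, edgeR). The groups overlapped for Lyn (0.81), Blk (0.65) and Btk (1.11), where the numbers are log2 fold changes. Btk, the kinase next to Syk, was the only one of these in which CD103KO replicate 3 was the lowest CD103KO library, at 0.132 CPM.

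The remaining pair of this group differed little between the groups. Bank1, a scaffold for the receptor's kinases, was at 3.05, 2.79 and 1.89 CPM in WT and at 2.25, 2.95 and 2.62 CPM in CD103KO (log2 fold change 0.02, SE 0.19, edgeR). Ralgps2, an exchange factor for Ral GTPases, was at 29.8, 31.3 and 35.1 CPM in WT and at 34.4, 32.3 and 33.0 CPM in CD103KO (0.05, SE 0.07). The libraries of both groups overlapped for each.

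Among the surface receptors, Fcer2a, the low-affinity IgE receptor CD23, was at 0.147, 0.125 and 0.151 CPM in WT and at 0.831, 0.778 and 0.939 CPM in CD103KO. These were 11, 12 and 12 counts against 61, 53 and 71. The libraries within each group lay close together and the groups far apart. The fitted fold change was the largest of the 33 genes (log2 fold change 2.58, SE 0.27, adjusted p = 0.00589, edgeR). Fcer2a reached the filter level in 2 WT libraries and in all CD103KO libraries, so it is among the genes that passed the filter through CD103KO.

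Ms4a1, which encodes CD20, was at 0.347, 0.355 and 0.428 CPM in WT and at 1.27, 1.56 and 2.67 CPM in CD103KO. The groups did not overlap, and CD103KO replicate 3 stood above the other CD103KO libraries (log2 fold change 2.28, SE 0.31, adjusted p = 0.0268, edgeR). The call of Ms4a1 was lost without WT replicate 1 (adjusted p = 0.149), WT replicate 2 (0.141), WT replicate 3 (0.0579) or CD103KO replicate 2 (0.0964), and with limma-voom (0.0755). Its log2 fold change was 2.23 to 2.38 in the 4 fits without 1 of those libraries.

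Fcmr, the receptor for IgM, was at 0.174, 0.240 and 0.491 CPM in WT and at 1.35, 1.34 and 1.80 CPM in CD103KO. WT replicate 3 was the highest WT library, and the groups did not overlap (log2 fold change 2.31, SE 0.36, adjusted p = 0.0529 in edgeR and 2.36e-07 in DESeq2). Without WT replicate 3, the edgeR adjusted p of Fcmr was 0.0105. Cd22 was at 0.441, 0.627 and 0.491 CPM in WT and at 1.185, 1.01 and 1.47 CPM in CD103KO (log2 fold change 1.23, adjusted p = 0.145 in edgeR and 0.0134 in DESeq2).

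Of the rarer receptors, Cr2 (log2 fold change 2.16), Fcrla (1.90) and Cd180 (1.35) had groups that did not overlap, and none passed in either tool. Cd180, a relative of the Toll-like receptors, overlaps Mast4 on the opposite strand, and the strand setting of the counting is not given in the sources used here. Its partner Ly86 (0.72) had CD103KO libraries at 0.235 to 0.317 CPM and WT libraries at 0.104 to 0.227 CPM, without overlap. Cr2, Fcrla, Cd180 and Ly86 reached the filter level in fewer than 3 WT libraries but in all CD103KO libraries. Fcrl1 (0.42) overlapped between groups. Napsa, an aspartic protease, was at 0.167 to 0.264 CPM in WT and at 0.518 to 0.635 CPM in CD103KO (1.41, adjusted p = 0.17, edgeR).

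Cd72 and Cd55 were not rare. Cd72, an inhibitory coreceptor whose gene overlaps Tesk1 on the opposite strand, was at 43.7, 43.3 and 35.7 CPM in WT and at 37.7, 37.5 and 36.4 CPM in CD103KO. Cd55, a brake on complement, was at 42.3, 42.0 and 40.2 CPM in WT and at 44.1, 37.7 and 36.1 CPM in CD103KO. The groups overlapped for both, with log2 fold changes of -0.14 and -0.08 (SE 0.08 each, edgeR).

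Of the 4 TNF family receptors and activation proteins, 3 had a log2 fold change a little below 0 and 1, Cd40, had one above 0. Tnfrsf13c, the receptor for the survival factor BAFF, was at 2.38, 2.72 and 2.36 CPM in WT and at 2.48, 2.26 and 2.34 CPM in CD103KO (log2 fold change -0.08, SE 0.12, edgeR). Tnfrsf13b, which encodes TACI, was at 39.9, 41.4 and 37.9 CPM in WT and at 42.1, 35.0 and 33.7 CPM in CD103KO (-0.11, SE 0.08). Cd83, an activation marker, was at 6.73, 5.30 and 6.64 CPM in WT and at 5.91, 4.83 and 5.83 CPM in CD103KO (-0.17, SE 0.12).

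The groups overlapped for each of these, and also for Cd40, the receptor for T cell help (log2 fold change 0.68, SE 0.86, edgeR). Cd40 had 27, 3 and 2 counts in WT and 10, 12 and 25 in CD103KO, so that WT replicate 1 was the highest library of the 6. Tnfrsf13b, Bcl11a and Ebf1 lie on chromosome 11, as Itgae does.

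Among the 6 transcription factors, 5 had groups that did not overlap and were higher in CD103KO, beside 6.82% of all tested genes. By edgeR 0 passed, and without adjustment 5 were higher and 0 lower, beside 4.53% and 4.2%. DESeq2 called 2 higher, beside 0.544% of genes. Of these factors, Mef2c, Ebf1 and Bcl11a reached the filter level in fewer than 3 WT libraries but in all CD103KO libraries. Pax5 was at 0.280, 0.240 and 0.465 CPM in WT and at 1.09, 0.910 and 1.71 CPM in CD103KO (log2 fold change 1.91, adjusted p = 0.113 in edgeR and 0.000173 in DESeq2). Mef2c, which acts below the B cell receptor and in other tissues, was at 0.267, 0.125 and 0.201 CPM in WT and at 0.736, 0.617 and 0.886 CPM in CD103KO (1.93, adjusted p = 0.103 and 0.00248).

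Ebf1 was at 0.120, 0.0627 and 0.0755 CPM in WT and at 0.259, 0.338 and 0.397 CPM in CD103KO, and Bcl11a at 0.0522 to 0.0801 CPM against 0.206 to 0.368 CPM. Their log2 fold changes were 1.95 and 2.10, and that of the Ets factor Spib was 1.12. Pou2f2, the octamer-binding factor Oct2, was the exception, at 26.0, 28.1 and 27.6 CPM in WT and at 29.7, 26.2 and 25.3 CPM in CD103KO (-0.01, SE 0.07, edgeR). The rare factors were thus higher in CD103KO without passing in edgeR, and the abundant one overlapped between groups.

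**Figure D2:**
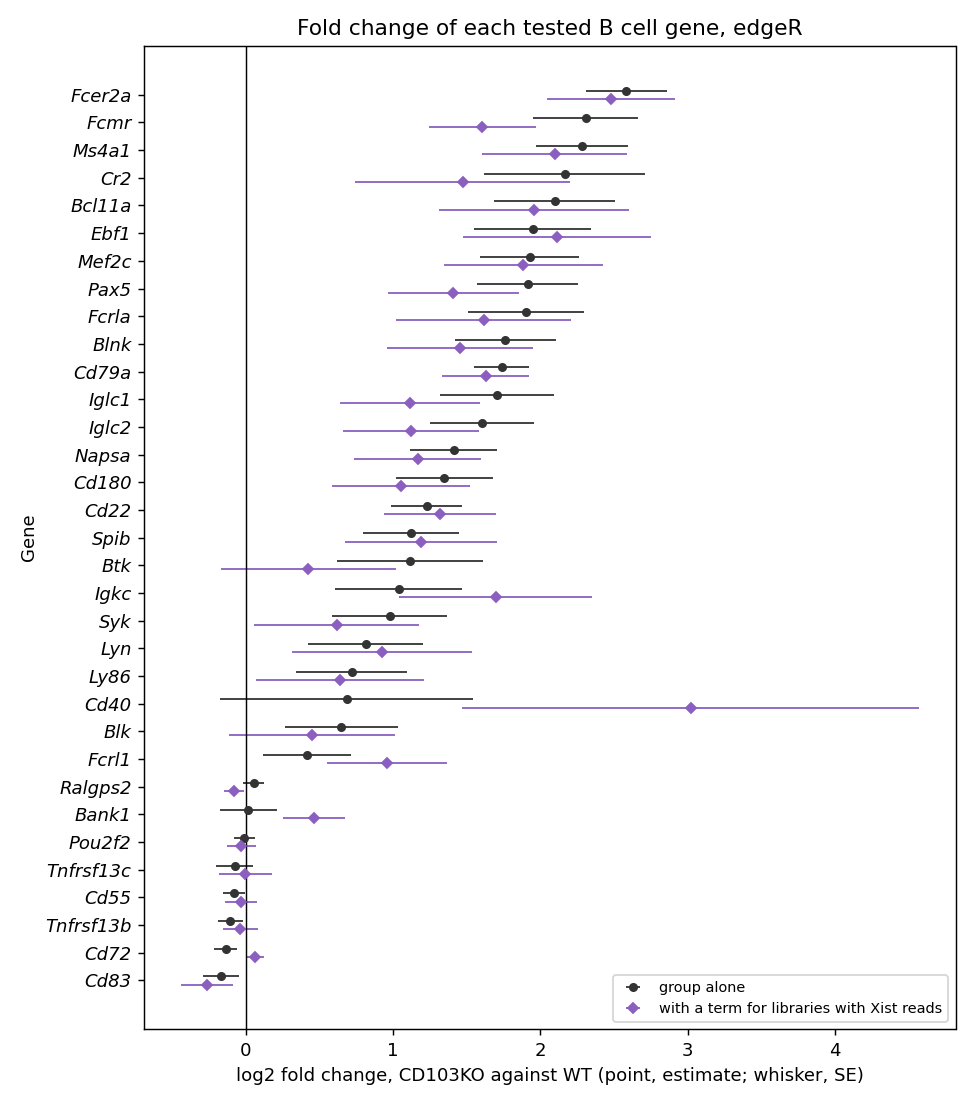
Log2 fold change of CD103KO against WT (x axis; point, edgeR estimate; whisker, SE) for each tested B cell gene, by group alone (black) and with a term for libraries with Xist reads (purple). Cd79a moves from 1.74 to 1.63 and Fcer2a from 2.58 to 2.48, with wider whiskers, while Fcmr moves from 2.31 to 1.60.

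With the term for Xist reads, which leaves WT replicate 3 as the only WT library to set the group difference, edgeR called 0 of the 33 higher and 0 lower, beside 0.0668% and 0.0445% of all tested genes. Before adjustment 16 of the 33 were higher and 0 lower at p under 0.05, beside 4.16% and 3.28%. The fitted log2 difference was then 1.63 for Cd79a (SE 0.30, adjusted p = 0.252, edgeR), 2.48 for Fcer2a (SE 0.44, adjusted p = 0.238) and 2.10 for Ms4a1 (SE 0.49, adjusted p = 0.496). Fcmr had 1.60 and Cd40 3.02 (SE 1.55), and the median over the 33 genes was 1.12, as without the term. Over the tested genes under 5 CPM the median went from 1.41 to 1.32. Single genes moved more, in both directions. Cr2 went from 2.16 to 1.47 and Pax5 from 1.91 to 1.41, while Igkc went from 1.04 to 1.70 and Fcrl1 from 0.42 to 0.96. The estimates of the 3 called genes thus moved little, while their calls were lost.

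The gain of each gene, the CD103KO mean minus the WT mean in CPM, asks whether the genes rose by amounts that 1 common cell source would add. Cd79a gained 1.77 CPM (SE 0.286), Ms4a1 1.45 (SE 0.429), Fcmr 1.19 (SE 0.180), Igkc 1.14 (SE 0.580), Pax5 0.907 (SE 0.251), Fcer2a 0.708 (SE 0.0481) and Cd22 0.703 (SE 0.144). Summed over the 29 genes under 5 CPM, the WT libraries were at 15.1, 11.5 and 12.5 CPM and the CD103KO libraries at 22.4, 24.7 and 32.1 CPM. That is a gain of 13.4 CPM (SE 3.12), with every CD103KO library above every WT library. The cut at 5 CPM was chosen after the values were seen. It leaves out 5 of the 6 genes with a lower mean in CD103KO, so this sum is a description and no test.

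The 6 genes of 5 CPM or more summed to a change of -8.39 CPM, and all 35 to 5.004 CPM (SE 6.02), which is within its error. The SE of the gain was 0.580 to 2.78 CPM for these 6 genes and above 1 CPM for 5 of them. A gain of the size of that of Pax5 or Fcer2a would be within the error of those 5. For Tnfrsf13c the gain was -0.126 CPM (SE 0.131) and for Bank1 0.0322 CPM (SE 0.406).

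**Figure D3:**
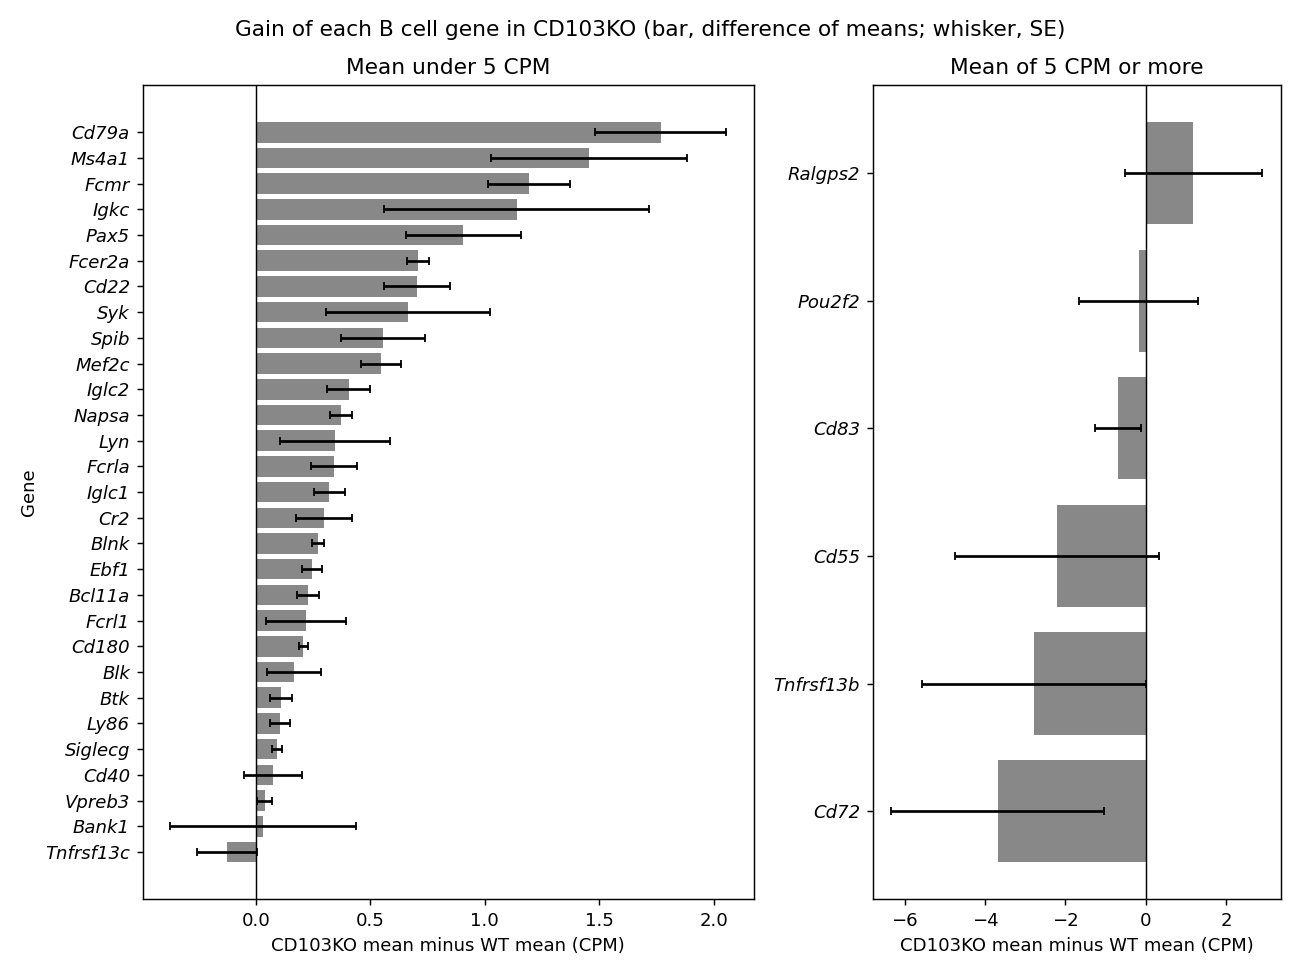
Gain of each B cell gene (bar, CD103KO mean minus WT mean in CPM; whisker, SE), with genes averaging under 5 CPM at the left and the other 6 at the right, on different axes. Of the 29 genes at the left, 28 have a bar above 0, from 0.0322 CPM for Bank1 to 1.77 CPM for Cd79a, while 5 of the 6 at the right have a bar below 0.

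Gains can be compared between genes only per length, here per kb of the exons of all transcripts in GENCODE. Per kb the gain was 2.14 CPM for Igkc, 1.21 for Cd79a, 0.707 for Iglc1, 0.687 for Fcmr and 0.662 for Iglc2. It was 0.235 for Ms4a1 and 0.229 for Fcer2a, 0.139 for Cd22, 0.102 for Pax5, 0.0349 for Mef2c and 0.0173 for Bcl11a. The light chains, Cd79a and Fcmr thus had the highest gains per length. The transcription factors had lower ones, with Spib at 0.194 CPM per kb the highest of them. So did the kinases and adaptors, with Ralgps2 the highest at 0.0978 CPM per kb.

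Genes added from 1 source in a fixed ratio would hold the same ratio to each other in every CD103KO library. The gain of each gene over the WT mean was therefore divided by that of Cd79a in each CD103KO library. For 24 genes the level was above the WT mean in all 3, and for 14 of these 24 the highest of the 3 ratios was within 2-fold of the lowest. The other genes, Cd40, Blk, Bank1 and Tnfrsf13c among them, were not above the WT mean in every CD103KO library. They did not hold a fixed ratio and are left out, so the 24 were chosen for being high in CD103KO. The median of highest over lowest was 1.68, from 1.177 for Fcmr to 11.2 for Ralgps2. Iglc1 (1.19) and Ebf1 (1.25) were among the steadiest, and Fcrl1 (7.84), Btk (7.31) and Lyn (4.95) among the least steady. With Ms4a1 in place of Cd79a, 11 of 24 were within 2-fold and the median was 2.02. These ratios share Cd79a or Ms4a1 and the library, and they carry no test.

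The level of each gene relative to Cd79a was also compared between groups. Of the 28 rare genes other than Cd79a, 16 had a ratio in CD103KO within 1.5-fold of that in WT, 1 was higher and 11 were lower. Iglc1 was at 0.188 of Cd79a in WT and 0.183 in CD103KO, Blnk at 0.146 and 0.151, Siglecg at 0.0486 and 0.0509, and Pax5 at 0.433 and 0.489. Fcer2a was the gene with the higher ratio, from 0.186 to 0.336. The split depends on the limit of 1.5-fold. Fcmr and Ms4a1 were just inside it, with a CD103KO ratio 1.49 and 1.46 times that in WT. Btk and Spib were just outside it, at 0.647 and 0.650 times.

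Among the 11 with lower ratios, Tnfrsf13c went from 3.28 to 0.934 and Bank1 from 3.39 to 1.03, near the change that equal CPM in both groups would give. Igkc went from 1.46 to 0.888. In single WT libraries Igkc was at 2.696, 0.853 and 0.846 times Cd79a, and in CD103KO libraries at 0.739, 0.994 and 0.910, so WT replicate 1 stood apart.

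**Figure D4:**
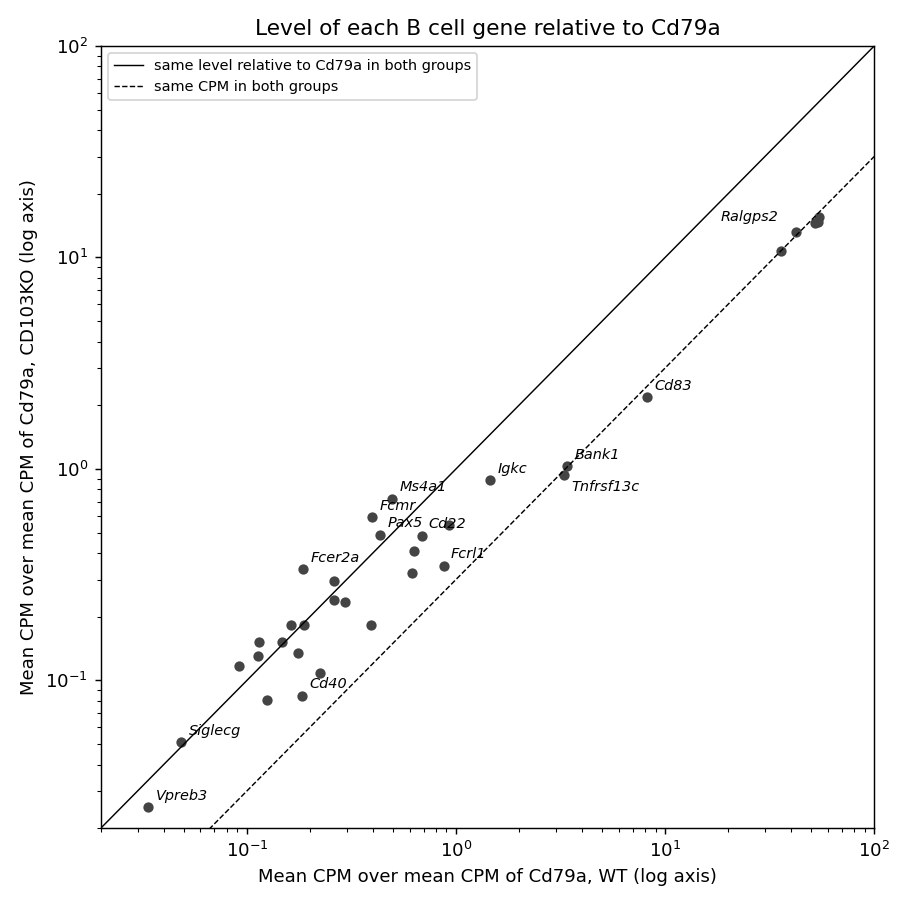
Level of each B cell gene relative to Cd79a in WT (x axis) and CD103KO (y axis), as ratios of mean CPM on log axes; the solid line marks equal ratios and the dashed line equal CPM in both groups. Siglecg (0.0486 and 0.0509) and Pax5 (0.433 and 0.489) lie near the solid line, and Tnfrsf13c, Bank1, Cd83 and Ralgps2 near the dashed line.

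The order of the libraries was shared by most of the rare genes. CD103KO replicate 3 was the highest CD103KO library for 24 of the 29, CD103KO replicate 1 for 3 and CD103KO replicate 2 for 2. In WT, replicate 3 was the highest for 17, replicate 1 for 10 and replicate 2 for 2. For all 6 genes of 5 CPM or more, CD103KO replicate 1 was the highest CD103KO library instead. The order with CD103KO replicate 3 highest was not particular to B cell genes, since it was also that of 7 of 9 plasma cell genes, 7 of 10 myeloid and dendritic cell genes and 4 of 6 CD4 and regulatory T cell genes tested. It was that of 1 of 8 CD8 T cell genes, 2 of 5 NK cell genes and 0 of 5 erythrocyte and platelet genes. The share over all tested genes was not computed.

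Other B cell genes, outside the list, numbered 25, of which 21 were tested, and edgeR called 0, while DESeq2 called 3 higher, among them Cd86 and Ighd. Without adjustment, 5 were higher and 0 lower in edgeR (p under 0.05), beside 4.53% and 4.2% of all tested genes. The median log2 fold change was 0.11.

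Cd79b, the partner of Cd79a, was at 22.9 to 26.7 CPM in WT and at 24.6 to 26.0 CPM in CD103KO, a gain of 0.195 CPM (SE 1.29). Ighm, the IgM heavy chain, was at 424 to 475 CPM and at 439 to 460 CPM, a gain of 2.18 CPM (SE 16.04). Pou2af1, the coactivator of Oct factors, was at 15.2 to 17.6 CPM and at 16.7 to 18.4 CPM. These 3 genes were abundant in both groups, and a gain like that of Cd79a would not exceed the error for Ighm. Ighd was at 5.51 to 8.51 CPM and at 9.90 to 10.7 CPM, without overlap (log2 fold change 0.58, adjusted p = 0.28 in edgeR and 0.00889 in DESeq2).

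Genes of MHC class II, which B cells and dendritic cells share, were higher in part. Of 7 tested, 5 had groups that did not overlap, higher in CD103KO, beside 6.82% of all tested genes. Of the 7, edgeR called 0 (without adjustment 5 higher, 0 lower, beside 4.53% and 4.2%), and DESeq2 called H2-Aa and H2-Eb1 higher. Cd74, the invariant chain, was at 16.7, 10.2 and 13.0 CPM in WT and at 18.2, 18.3 and 23.6 CPM in CD103KO (log2 fold change 0.59, adjusted p = 0.404, edgeR). Its gain was 6.72 CPM (SE 2.58). CD103KO replicate 3 was the highest CD103KO library for 5 of the 7 genes.

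Of 16 myeloid and dendritic cell genes, 10 were tested, edgeR and DESeq2 each called 0, and 0 had an unadjusted p under 0.05 in edgeR. Their summed level was 44.4 to 53.2 CPM in WT and 45.9 to 48.9 CPM in CD103KO. Cd14 and Siglech had 0 counts in every library, and S100a8 had 1 count in all.

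Plasma cell genes had a summed level of 46.4 to 52.8 CPM in WT and 44.3 to 50.6 CPM in CD103KO. Of 9 tested, edgeR and DESeq2 called 0 (without adjustment 1 higher, 1 lower in edgeR), and Tnfrsf17 had 0 counts in every library. CD4 and regulatory T cell genes (6 tested, median log2 fold change 0.22) and NK cell genes (5 tested, -0.03) also had 0 calls by edgeR and DESeq2, and 0 at an unadjusted p under 0.05 in edgeR.

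Transcripts of red blood cells moved with the group as well. The 8 erythrocyte and platelet genes summed to 33.0 to 50.1 CPM in WT and 57.5 to 93.1 CPM in CD103KO. Of the 5 tested, edgeR called 0 (without adjustment 4 higher, 0 lower, beside 4.53% and 4.2% of all tested genes). DESeq2 called 3 higher, beside 0.544% of genes, among them the globin gene Hba-a2. Hba-a2 was at 12.0, 13.9 and 17.6 CPM in WT and 35.4, 31.6 and 21.5 CPM in CD103KO. Pf4 had 0 counts in every library. CD103KO replicate 1 was the highest CD103KO library for all 5, whereas it was the highest for 3 of the 29 rare B cell genes. The part of blood cells in the B cell results was not tested.

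Promoters of the B cell genes were searched for 3 motifs because Oct2, Ebf1 and Spib are themselves among the genes. RefSeq windows (GRCm38.p6) from 250 bases before to 50 after the start matched 26 of the 35 genes, and both strands were searched. The octamer ATGCAAAT was in the windows of Blnk and Vpreb3, 2 of 26, beside 1.97% of 27025 genes with windows of the same length. The Ebf palindrome TCCCNNGGGA was in that of Cd22, 1 of 26, beside 1.06%. The Ets motif GAGGAAGT was in those of Cd72 and Fcrl1, 2 of 26, beside 3.69%. The sites printed, on the strand of the gene with the motif in capitals, lie at chr19:40994333-40994362 (Blnk, minus strand) and chr7:30879058-30879087 (Cd22, minus strand). That of Blnk is the reverse complement of the octamer.
Blnk: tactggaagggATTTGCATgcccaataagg
Cd22: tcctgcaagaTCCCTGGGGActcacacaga

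A match is a description of these letters and not of binding. Of the 5 genes with a match, Blnk and Cd22 had groups that did not overlap, and Vpreb3, Cd72 and Fcrl1 had groups that overlapped. Of all 35 B cell genes, 20 had groups that did not overlap and were higher in CD103KO, beside 6.82% of all tested genes. A link between motif and change was not tested.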

How the data were processed

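RNA was measured in 6 bulk libraries, 3 WT and 3 CD103KO. The values are RSEM's expected counts, deposited by the authors as a single table, and 6.48% of its values were not whole. Per the submitters' processing notes, the tools were RSEM, STAR 2.7.0f, cutadapt 1.18 and bcl2fastq 2.20, and the builds named are mm10 and GRCm38. Not given in the sources used here are RSEM's version, the gene models, the strand setting and how reads that map to several genes were treated. Reads shared by similar genes may therefore be divided between them.

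Counts were rounded to whole numbers, filtered with filterByExpr, scaled by TMM and tested with edgeR 4.0.16 (glmQLFit and glmQLFTest, R 4.3.3), with Benjamini-Hochberg adjustment over 13470 genes at 0.05. DESeq2 1.42.0 and limma 3.58.1 were alternatives, as were other scalings and filters, a replicate block, a term for Xist reads and leaving out each library. The SE of a gain is that of the difference of 2 group means. Gene positions and exon lengths came from GENCODE M21. Within groups, no 2 libraries agreed within counting error (chi-square per degree of freedom 12.7 to 26.4).

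The B cell genes and the lists of other cell types were chosen with earlier results of these data known. Each B cell gene is accounted for by symbol. Itgae, Cd79b, Ighm, Ighd, Pou2af1 and Cd74 are also named by rule, 1 further gene of that rule is not reported here, and other genes outside the list were named after their values were seen. No p-value was computed over the B cell genes as a set. Tested on simulated data for this comparison (13470 genes, 50 changed at each size), the edgeR script found 62% of those changed 1.5-fold and 84% of those changed 2-fold. It found 96% of those changed 3-fold or 4-fold, while 13 of its 182 calls fell on genes left as they were. The changed genes were drawn at random from all tested genes. These shares are therefore not those for genes as rare as most of the B cell genes, for which the share found was not tested.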

Additional observations from a re-analysis of the deposited data

How the results depend on the processing

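The count of B cell genes called higher in CD103KO was 3 with edgeR, 8 without a filter on low counts, 7 with DESeq2, 0 with a term for Xist reads and 0 in the 4 libraries without Xist reads. It was 2 to 3 when each library was left out, with Cd79a and Fcer2a called each time, and the count called lower was 0 in every setting run. Over all genes, 19 of 13470 were called higher in the main fit, 71 of 22386 without a filter and 84 of 15433 with DESeq2. A filter of 1 CPM in 3 libraries kept 14 B cell genes, and Fcer2a was not among them. Cd79a and Ms4a1, 2 of the 14, were called higher, beside 16 of 10813 genes. The median log2 fold change was 0.03 for the 14 and 1.13 for the 8 of them under 5 CPM, beside 1.12 for the 33. The labels do not say whether replicate numbers pair the samples. Correlations of deviations were -0.279, -0.0340 and 0.0329 for libraries of the same number, beside -0.254 to 0.264 for the others, so no pairing was seen. With a replicate block 4 B cell genes were called higher, with Fcmr added (adjusted p = 0.0452, edgeR), beside 16 of 13470 genes. The summed gain of the 35 genes was -0.340 to 8.71 CPM with 1 library left out, the extremes being without CD103KO replicate 1 and without CD103KO replicate 2. For the 29 genes under 5 CPM, a setting chosen after seeing the data, it was 10.5 to 15.4 CPM. Log2 fold changes turned sign for Ralgps2 (-0.079) and Cd72 (0.060) with the Xist term, and likewise in the libraries without Xist reads (-0.078 and 0.061). They also did so for Pou2f2 without WT replicate 2 (0.0099), CD103KO replicate 2 (0.0091) or CD103KO replicate 3 (0.035; range over the libraries left out -0.083 to 0.035), and for Bank1 without WT replicate 3 (-0.16) or CD103KO replicate 2 (-0.084; range -0.16 to 0.15). None of these was called, and the cause was not tested. Fits with the Xist term, or without the libraries that have Xist reads, rest on 1 WT library and assume that it varies like the others. At 0.0104 to 0.0147 CPM per count, genes with few counts, such as Cd40, Siglecg and Vpreb3, have wide counting error.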
